A study of Mus musculus with 8 samples.

Results

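The genes described here are interleukin-2 (Il2), the chains of its receptor (Il2ra, Il2rb and Il2rg), the kinase Jak3 and the transcription factors Stat5a and Stat5b. They were chosen by name, and every probe set annotated to 1 of them alone was read on all 8 arrays. That gave 10 probe sets for 6 of the 7 genes, out of 45037 probe sets other than controls and 18193 named genes. Il2rg had no probe set named in the annotation used, so it is not analysed here, and 3 probe sets shared with another gene (1 for Il2 and 2 for Jak3) were left out. A probe set is a group of short oligonucleotides on an Affymetrix array that together report on a transcript.

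The cells were mouse naive CD4 T cells, sorted as CD4+CD25-CD44loCD62Lhi to a purity over 98%. The 4 genotypes, each labelled C57BL/6J, were Smad2KO (Smad2del/del, a conditional deletion made in T cells), Smad3KO (Smad3-/-), Smad2KO_Smad3het (Smad2del/del with Smad3+/-) and wild type (WT). The Smad2KO_Smad3het cells stood in for cells lacking both Smads, of which naive cells were hard to obtain, so they keep 1 Smad3 allele. What drives the Smad2 deletion is not named in the labels. Each genotype was cultured for 24 h with TGF-b at 2 ng/ml or without it, with 1 array for each of the 8 cultures. All 8 cultures also had anti-CD3e (plate-bound) and anti-CD28 at 1 ug/ml each, recombinant IL-2 at 10 ng/ml, and antibodies (10 ug/ml) against IL-4 and IFN-g. Every sample therefore carried added IL-2 beside whatever the cells made. The CD25 that was sorted against is the protein of Il2ra.

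IL-2 is the growth factor that activated T cells secrete and also respond to. Its receptor has an alpha chain (Il2ra, CD25), which raises the affinity for IL-2, and a signalling pair of beta (Il2rb) and common gamma (Il2rg) chains. Jak3 binds the gamma chain, and the receptor's kinases phosphorylate Stat5a and Stat5b, which then enter the nucleus and bind DNA. Il2 transcription in T cells depends on NFAT, AP-1 and NF-kB factors downstream of the antigen receptor, and TGF-b is long known to restrain it through Smad proteins.

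The stretches just upstream of the Il2 and Il2ra start sites are shown because these genes moved in opposite directions with TGF-b. Each line gives the 250 bases before the annotated start, 5′ to 3′ on the gene's strand, from RefSeq on build GRCm38.p6. Il2 lies at chr3:37125955-37126204 on the minus strand, and Il2ra at chr2:11642542-11642791 on the plus strand. Capitals mark GGAAA, the core that NFAT factors bind, or its reverse complement TTTCC.
Il2: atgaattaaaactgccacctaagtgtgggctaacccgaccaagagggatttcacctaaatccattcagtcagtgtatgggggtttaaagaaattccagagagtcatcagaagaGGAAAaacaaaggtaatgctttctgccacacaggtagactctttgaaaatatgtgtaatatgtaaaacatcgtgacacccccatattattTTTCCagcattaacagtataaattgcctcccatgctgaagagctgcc
Il2ra: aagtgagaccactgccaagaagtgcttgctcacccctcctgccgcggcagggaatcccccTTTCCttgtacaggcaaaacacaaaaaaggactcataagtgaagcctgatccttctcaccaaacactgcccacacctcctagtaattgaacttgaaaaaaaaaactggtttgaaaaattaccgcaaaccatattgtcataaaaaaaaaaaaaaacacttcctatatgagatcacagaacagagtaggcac

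The Il2 stretch held GGAAA in 2 places, at bases 137 to 133 and, on the opposite strand, 47 to 43 before the start. The Il2ra stretch held it in 1 place, at bases 190 to 186 on the opposite strand. Over both strands, 55.6% of 32851 RefSeq windows of the same length held this core. CAGAC, the core bound by Smad proteins, stood in 42.2% of windows and in neither of these stretches. TTCNNNGAA, the core bound by STAT5, stood in 7.02% and TGANTCA, the core bound by AP-1, in 6.75%, and neither was found in these stretches. No match says only that these letters are not in these windows. The 4 motifs can overlap each other and no array value was tied to any of them.

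Signals are given after scaling each array to the same 2% trimmed mean, in arbitrary units. Differences are log2 of signals after values under a floor of 32.3, the median of all signals on the 6 arrays of Smad2KO, Smad3KO and WT, were raised to it. The 2 Smad2KO_Smad3het arrays stood apart. Their deposited trimmed means were 97.0 and 109, against 201 to 297 on the other 6, and their rank correlations with those were 0.659 to 0.693, against 0.907 to 0.928 among the 6. CD4 T cell markers were all bright (2 times the floor or more) on every array, 7 of 7 named genes. Myeloid and dendritic markers were bright for 6 of 9 genes on both Smad2KO_Smad3het arrays, against 0 to 1 of 9 on the other 6. Their summed signals were 3547 and 3167, against 198 to 313. Of all probe sets, 62.8% and 62.2% were bright on the Smad2KO_Smad3het arrays with and without TGF-b, against 39.3% to 40.7% on the other 6. Median scaled signals were 106 and 103 on those 2 arrays, against 30.5 to 35.4. The count of 6 of 9 was thus near the share of all probe sets there. Tests therefore used the 6 arrays, and Smad2KO_Smad3het is given as values. Control probe sets for 18S ribosomal RNA reached 70.1 to 182 with TGF-b and 2595 to 3992 without it in WT, and 34.7 to 2526 on the 4 mutant arrays of the 6, and their part in the results was not tested. Smad2 signals were 953 to 1145 on the 6 arrays, in Smad2KO as in WT. Smad3 signals were 725 and 609 in Smad3KO with and without TGF-b, against 544 and 148 in WT. The probes may lie outside the deleted parts, so these signals check nothing.

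The Il2 signal was lower with TGF-b than without it in all 4 genotypes, 1.23- to 3.53-fold in the mutants and 9.41-fold in WT, while the receptor alpha and beta chains and both Stat5 genes went the other way. Without TGF-b, the Il2 signal was much alike across Smad2KO, Smad3KO and WT. With it, Smad2KO and Smad3KO read about 3 times the WT signal. Il2ra, Il2rb, Stat5a and Stat5b had higher signals with TGF-b in every genotype. In Smad2KO_Smad3het, both Stat5a log2 ratios (0.38 and 0.06) and that of Stat5b by 1422102_a_at (0.48) were small. They lay under the spread of all bright probe sets' ratios in that genotype (robust SD 0.491). Jak3 showed no shared direction.

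Il2 encodes the cytokine itself. Its signal in Smad2KO was 1558 with TGF-b and 5493 without. In Smad3KO it was 1716 with TGF-b and 5291 without. The Smad2KO_Smad3het arrays read 3222 and 3973. WT read 535 with TGF-b and 5031 without, the lowest signal of the 8 and 1 of the 4 high ones. All 4 cultures with TGF-b lay below all 4 without it. How many of all probe sets separate in this way was not counted, here or for the genes below. In bulk RNA, fewer cells making Il2 and less Il2 RNA in each cell cannot be told apart.

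The log2 ratio of Il2 with over without TGF-b was -1.82 in Smad2KO, -1.62 in Smad3KO, -0.30 in Smad2KO_Smad3het and -3.23 in WT. As folds, the signal was 3.53-fold lower with TGF-b in Smad2KO, 3.08-fold lower in Smad3KO, 1.23-fold lower in Smad2KO_Smad3het and 9.41-fold lower in WT. Each ratio rests on 2 arrays with no replicate check. The ratios' own spread over all bright probe sets (robust SD) was 0.281 in Smad2KO, 0.216 in Smad3KO, 0.491 in Smad2KO_Smad3het and 0.342 in WT. The Smad2KO_Smad3het ratio was thus smaller than the spread of its own genotype, and the other 3 were several times theirs.

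**Figure D1:**
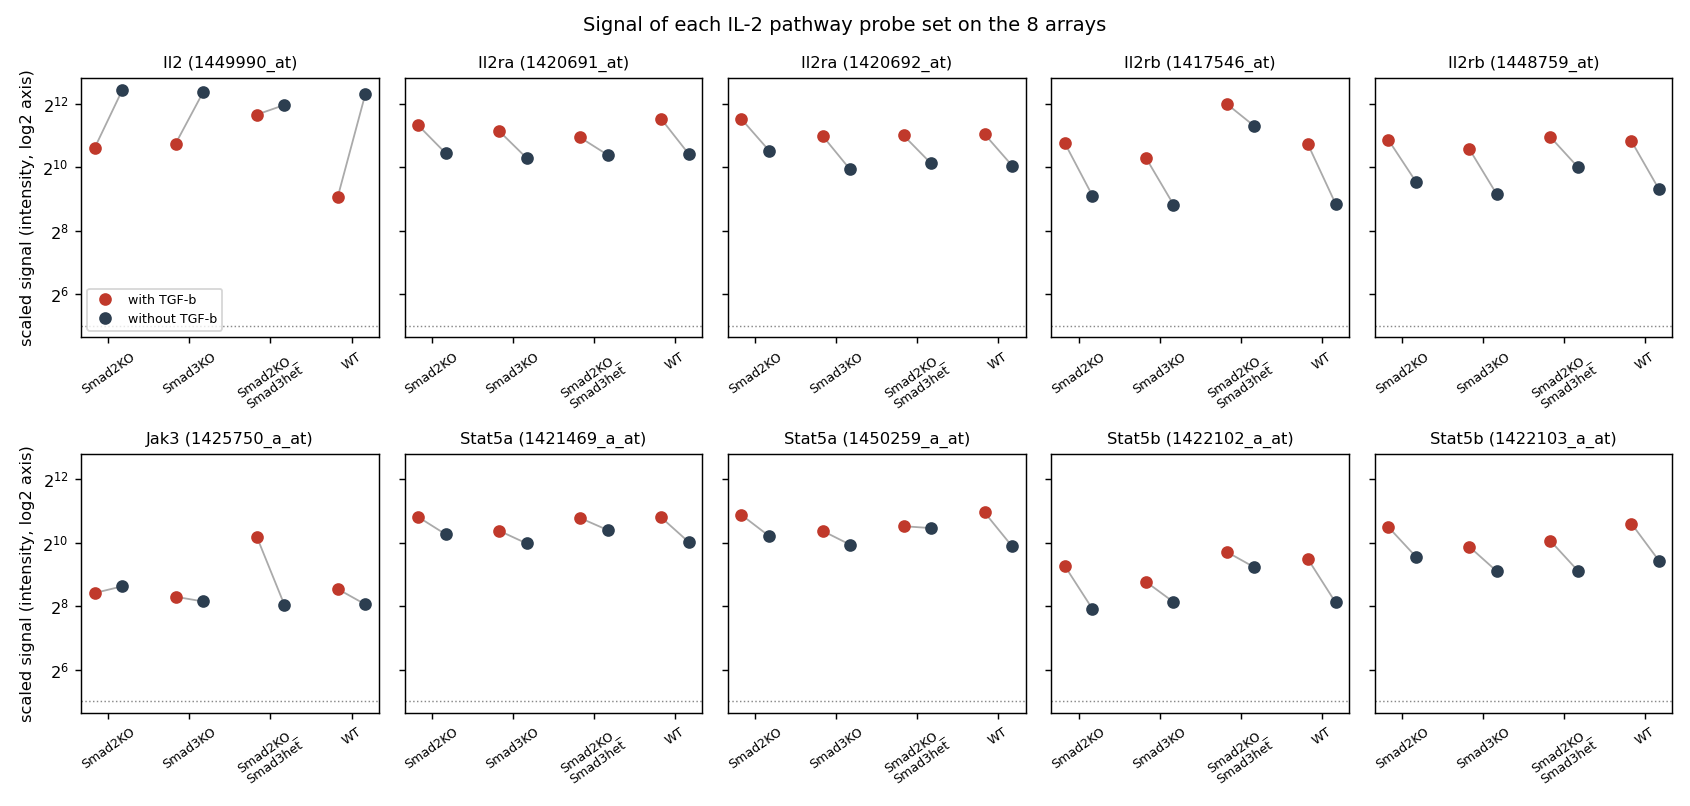
Scaled signal (log axis, arbitrary units) of the 10 probe sets on each of the 8 arrays, by genotype, with TGF-b and without it (the dotted line is the floor). Il2 with TGF-b in WT, at 535, lies below the mutants, which read 1558 to 3222, while the Il2ra, Il2rb, Stat5a and Stat5b points with TGF-b lie above those without in each genotype.

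With TGF-b, Il2 was 2.91-fold higher in Smad2KO than in WT, 3.21-fold higher in Smad3KO and 6.02-fold higher in Smad2KO_Smad3het. In its absence, it was 1.09-fold higher in Smad2KO and 1.05-fold higher in Smad3KO, and 1.27-fold lower in Smad2KO_Smad3het, than in WT. The gap between mutants and WT thus lay in the cultures with TGF-b. Averaged over Smad2KO and Smad3KO, the log2 response of Il2 to TGF-b exceeded that of WT by 1.51 (SE 0.138; adjusted p = 0.00536 by limma over 20103 probe sets). It was the 1 of the 10 probe sets past an adjusted p of 0.05, higher in the mutants in 2 of 2 genotypes. Over all probe sets 0.0647% were called higher and 0.0149% lower in that comparison.

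That test has 1 residual degree of freedom, the difference between both mutants, so it leans on the spread shared by all probe sets. Without the trend and robust settings of limma the adjusted p was 0.643, without the filter on dim probe sets 0.119, and with all 8 arrays 0.996 at a difference of 1.99. The other 9 probe sets had mutant minus WT responses of -0.52 to 0.03, with adjusted p of 0.413 to 0.970 by limma. Of these, 8 were below 0, the direction of a smaller rise in the mutants, and none of the 9 passed the threshold. At an unadjusted p under 0.05, 1 of the 10 was higher (Il2) and 1 lower, where 4.48% and 3.83% of all probe sets were.

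Taken over Smad2KO, Smad3KO and WT, the mean Il2 response was -2.23 (SE 0.443), with a limma adjusted p of 0.124 and an unadjusted p of 0.0205. It did not pass the threshold although all 3 genotypes had lower signals with TGF-b, the size of which ran from -3.23 to -1.62. Without the WT pair of arrays the mean was -1.72 with an adjusted p of 1.12e-06. Without the filter on dim probe sets the adjusted p was 0.0390.

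Il2ra encodes the alpha chain, CD25, and has a pair of probe sets. The first, 1420691_at, read 2558 with TGF-b and 1389 without in Smad2KO, and 2253 and 1249 in Smad3KO. It read 1956 and 1337 in Smad2KO_Smad3het, and 2937 and 1366 in WT. The 4 cultures with TGF-b did not overlap the 4 without, and WT with TGF-b was the highest.

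The second Il2ra probe set, 1420692_at, read 2922 with TGF-b and 1471 without in Smad2KO, and 2031 and 974 in Smad3KO. Its signals were 2046 and 1109 in Smad2KO_Smad3het, and 2104 and 1059 in WT. Here, too, cultures with and without TGF-b did not overlap, but Smad2KO was the highest in both conditions.

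The mean Il2ra response was 0.95 (SE 0.0794, limma adjusted p = 4.77e-05) by the first probe set and 1.01 (SE 0.0739, limma adjusted p = 1.73e-05) by the second, higher in 3 of 3 genotypes. In single genotypes the first gave log2 ratios of 0.88 in Smad2KO, 0.85 in Smad3KO, 0.55 in Smad2KO_Smad3het and 1.10 in WT. The second gave 0.99, 1.06 and 0.88 in the mutants in that order and 0.99 in WT. Regulatory T cell markers, a population that carries CD25, were bright for 3 of 3 named genes on the 6 arrays' cultures with TGF-b and for 1 to 2 of 3 without. Their summed signals were 367 to 854 with TGF-b and 326 to 495 without, and their part in the Il2ra result was not tested. Foxp3, the defining factor of those cells, read 99.5 to 399 with TGF-b and was below the floor without it on these 6 arrays. Ikzf2 lay near the cut for bright (64.5), at 56.0 to 71.5 without TGF-b and 72.0 to 113 with it. The third marker, Nrp1, had no shared direction. TGF-b cultures had the lower Nrp1 signal for WT (343 against 420) and Smad3KO (184 against 250). For Smad2KO they had the higher one (416 against 274).

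Il2rb encodes the beta chain, which signals for both IL-2 and IL-15. Its first probe set, 1417546_at, read 1723 with TGF-b and 549 without in Smad2KO, and 1253 and 452 in Smad3KO. The Smad2KO_Smad3het arrays read 4058 and 2503, and WT read 1685 and 461. On the 6 arrays, each culture with TGF-b was at least 2 times any without it. Both Smad2KO_Smad3het signals were far above the other genotypes in the same condition.

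The second Il2rb probe set, 1448759_at, read 1861 with TGF-b and 747 without in Smad2KO, and 1518 and 564 in Smad3KO. It read 1978 and 1025 in Smad2KO_Smad3het, and 1809 and 633 in WT. By this probe set Smad2KO_Smad3het lay close to the rest with TGF-b. The first signal divided by the second was 2.05 to 2.44 on the Smad2KO_Smad3het arrays and 0.729 to 0.932 on the other 6, so these probe sets disagree about the Il2rb level in that genotype. NK cells are a population rich in the beta chain. On the Smad2KO_Smad3het arrays 4 of 4 named NK markers were bright with TGF-b and 2 of 4 without. Of all probe sets, 62.8% and 62.2% were bright on these arrays. The NK marker sums there were 962 and 423. On the other 6 arrays 0 of 4 were bright, with sums of 42.8 to 89.2 with TGF-b and 16.4 to 39.2 without. Other marker sums were also higher there. Those of CD8 T cells were 1569 and 1223 with and without TGF-b, against 67.7 to 160 on the other 6 arrays. They were mostly Cd8a, at 1556 and 1066. Cd8b1 read 13.1 and 157, against 38.1 to 92.2 on the other 6 arrays, so with TGF-b it was lower there. The B cell sums were 446 and 428, against 66.2 to 95.4, with 3 of 6 named genes bright on each Smad2KO_Smad3het array. Median signals of all probe sets were also higher on these 2 arrays, at 106 and 103, against 30.5 to 35.4 on the other 6. The part of any of these cells in the Smad2KO_Smad3het signals was not tested.

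The mean Il2rb response was 1.66 (SE 0.0971, limma adjusted p = 3.12e-06) by the first probe set and 1.42 (SE 0.0836, limma adjusted p = 3.12e-06) by the second. Single ratios by the first were 1.65 in Smad2KO, 1.47 in Smad3KO, 0.70 in Smad2KO_Smad3het and 1.87 in WT, and by the second 1.32, 1.43 and 0.95 in the mutants in that order and 1.52 in WT. Il2rb thus had the largest mean rise among the 10 probe sets by either of its probe sets, and its rise was present in 4 of 4 genotypes.

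**Figure D2:**
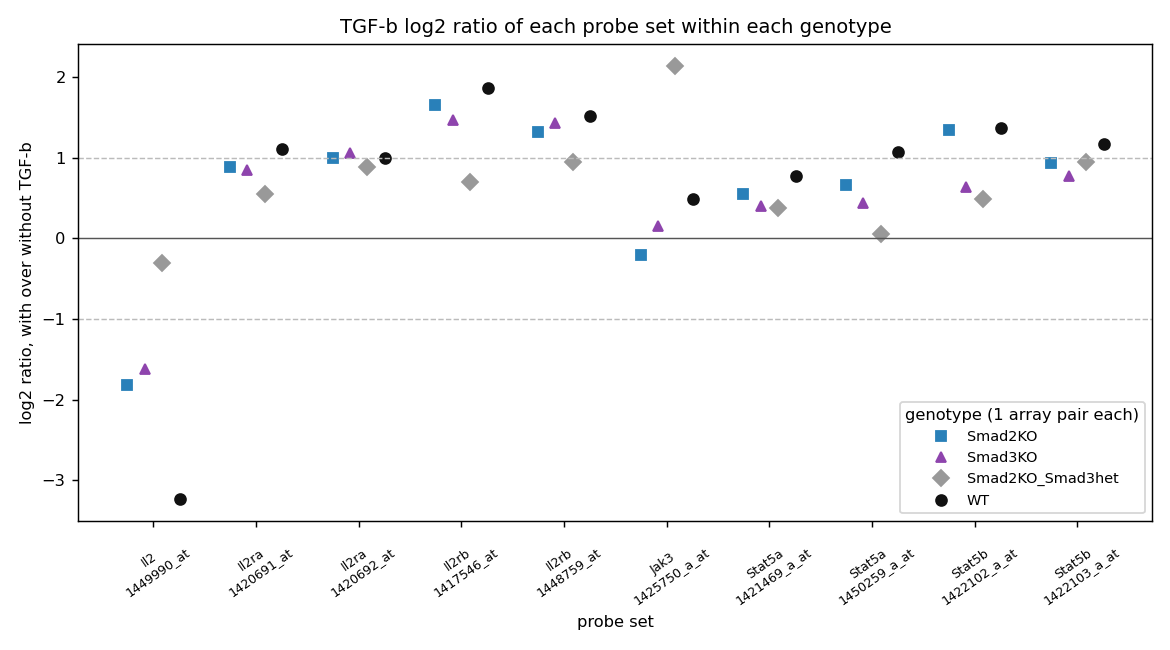
Log2 ratio of the signal with TGF-b over that without for each probe set (1 point per genotype, each from a pair of arrays, so with no error bar). Il2 runs from -3.23 in WT to -0.30 in Smad2KO_Smad3het, while the Il2ra, Il2rb, Stat5a and Stat5b ratios are above 0 in all 4 genotypes. In Smad2KO_Smad3het the Il2 ratio, both Stat5a ratios and that of Stat5b by 1422102_a_at are smaller in size than the spread of its ratios (robust SD 0.491).

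Jak3, the kinase of the common gamma chain, was read by 1 probe set, 1425750_a_at,. It read 343 with TGF-b and 396 without in Smad2KO, and 315 and 285 in Smad3KO. The Smad2KO_Smad3het arrays read 1174 and 266, and WT read 374 and 267. Apart from Smad2KO_Smad3het with TGF-b, all signals lay within a narrow band, and cultures with and without TGF-b overlapped. The log2 ratios were -0.21 in Smad2KO, 0.15 in Smad3KO, 2.14 in Smad2KO_Smad3het and 0.48 in WT. The mean response over the 6 arrays was 0.14 (SE 0.140, limma adjusted p = 0.577), which did not pass the threshold, and the estimate was -0.03 without the WT pair. On the Smad2KO_Smad3het arrays the myeloid and dendritic marker sum was 3547 with TGF-b and 3167 without, and the NK marker sum was 962 and 423. Within the first sum, Flt3 read 680 and 149.7, Itgax 362 and 65.4, and Csf1r 1348 and 1085. Adgre1 ran the other way, at 426 and 1345. The part of these markers in the Jak3 signal was not tested.

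Stat5a and Stat5b are a near-identical pair of neighbouring genes whose proteins carry the IL-2 signal, so probes for 1 may also catch the other. Stat5a by 1421469_a_at read 1803 with TGF-b and 1234 without in Smad2KO, and 1334 and 1010.2 in Smad3KO. It read 1761 and 1354 in Smad2KO_Smad3het, and 1785 and 1042 in WT. Each genotype was higher with TGF-b, but Smad3KO with TGF-b was below Smad2KO_Smad3het without.

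By 1450259_a_at, Stat5a read 1883 with TGF-b and 1189 without in Smad2KO, and 1330.3 and 984 in Smad3KO. It read 1472 and 1413 in Smad2KO_Smad3het, and 1988 and 949 in WT. WT had the widest gap and Smad2KO_Smad3het nearly none. The mean Stat5a response was 0.58 (SE 0.0893, limma adjusted p = 0.00246) by the first and 0.72 (SE 0.112, limma adjusted p = 0.00341) by the second. The ratios by the first were 0.55 in Smad2KO, 0.40 in Smad3KO, 0.38 in Smad2KO_Smad3het and 0.78 in WT, and those by the second were 0.66, 0.43 and 0.06 in the mutants in that order and 1.07 in WT.

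Stat5b by 1422102_a_at read 616 with TGF-b and 242 without in Smad2KO, and 438 and 281 in Smad3KO. It read 838 and 599.7 in Smad2KO_Smad3het, and 717 and 279 in WT. On the 6 arrays the cultures with TGF-b were all above those without.

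By 1422103_a_at, Stat5b read 1447 with TGF-b and 758 without in Smad2KO, and 941 and 549 in Smad3KO. It read 1071 and 557 in Smad2KO_Smad3het, and 1562 and 694 in WT. Again the groups did not overlap. The mean response was 1.12 (SE 0.148, limma adjusted p = 0.00121) by the first and 0.96 (SE 0.0958, limma adjusted p = 0.000141) by the second. The log2 ratios by the first were 1.35 in Smad2KO, 0.64 in Smad3KO, 0.48 in Smad2KO_Smad3het and 1.36 in WT, and by the second 0.93, 0.78 and 0.94 in the mutants in that order and 1.17 in WT. The first divided by the second was 0.783 to 1.08 on the Smad2KO_Smad3het arrays and 0.320 to 0.512 on the other 6, so these probe sets, too, disagree about the level there.

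Counted together, 8 of the 10 probe sets rose with TGF-b over Smad2KO, Smad3KO and WT and 0 fell past the threshold, with 1 (Il2) lower at an unadjusted p under 0.05, as were 11.1% of all probe sets. Over all 20149 probe sets tested, limma called 5.92% higher and 3.49% lower. The 8 were the probe sets of Il2ra, Il2rb, Stat5a and Stat5b. The median ratio of these 8 was 0.96 in Smad2KO, 0.81 in Smad3KO, 0.62 in Smad2KO_Smad3het and 1.14 in WT. The count of 8 was the same without the WT pair, without the Smad2KO pair and without the Smad3KO pair. It was 6 without the filter on dim probe sets, where both Stat5a probe sets lost their call, 5 without the trend and robust settings, and 1, an Il2ra probe set, when the Smad2KO_Smad3het arrays were fitted with the rest.

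Within single genotypes, 3 of the 10 probe sets were 2-fold or more higher and 1 lower with TGF-b in Smad2KO, where 3.64% and 1.54% of bright probe sets were. In Smad3KO, 3 were higher and 1 lower, against 2.1% and 0.785% of bright probe sets. In Smad2KO_Smad3het 1 was higher (Jak3) and 0 were lower, against 14.4% and 13%. In WT 6 were higher and 1 lower, against 4.63% and 3.02%. The lower one was Il2 in each of these 3 genotypes.

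Levels over both conditions were also set between each mutant and WT, with the same pair of WT arrays in both comparisons. In Smad2KO, 1 of 10 probe sets was called higher than in WT and 0 lower, where 0.546% and 0.412% of all probe sets were. At an unadjusted p under 0.05, 0 were lower, against 4.35% of all probe sets. It was the second Il2ra probe set, at 0.47 (SE 0.0905, limma adjusted p = 0.0381). The first Il2ra probe set had -0.09 (adjusted p = 0.847), so the pair disagrees on the Il2ra level in Smad2KO. That call was lost without the filter on dim probe sets (adjusted p = 0.232) and without the trend and robust settings (0.322).

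In Smad3KO, 0 of 10 were called against WT in either direction, where 0.159% of all probe sets were called higher and 0.213% lower. At an unadjusted p under 0.05, 0 of 10 were higher and 2 lower, where 4.94% and 5.37% of all probe sets were. Stat5b by 1422103_a_at had the smallest p, at -0.53 (SE 0.117, limma adjusted p = 0.0970). With the floor at the 25th percentile its adjusted p was 0.0301 at the same difference. Il2 levels differed by 0.83 in Smad2KO (adjusted p = 0.776) and 0.88 in Smad3KO (adjusted p = 0.710), neither past the threshold.

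**Figure D3:**
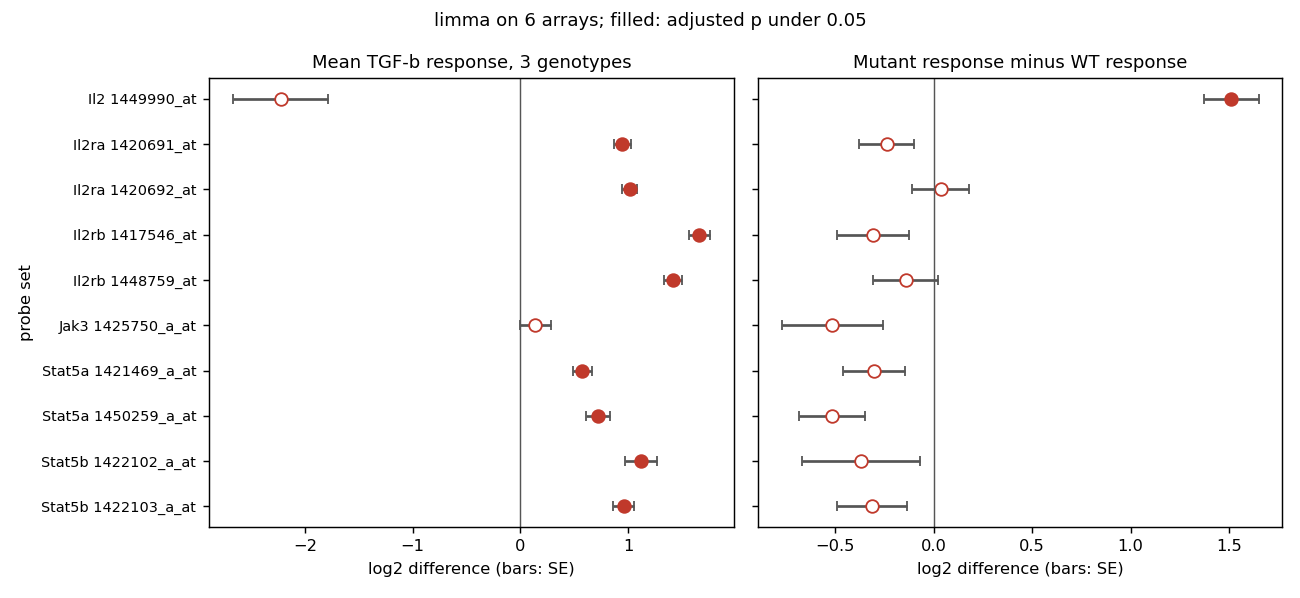
Log2 differences with standard errors from limma for the 10 probe sets on the 6 arrays of Smad2KO, Smad3KO and WT, with the mean TGF-b response on the left and the mutant minus WT response on the right (filled where the adjusted p is under 0.05). The 8 probe sets of Il2ra, Il2rb, Stat5a and Stat5b lie at 0.58 to 1.66 in the mean response, and Il2 alone passes the threshold in the mutant minus WT response, at 1.51.

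The genes around the pathway were read in 5 lists, from the brightest probe set of each gene, and their mean TGF-b responses over the 6 arrays were counted. Of 9457 genes tested, 6.47% rose and 4.58% fell, with a median of -0.02. The genes of the pathway itself, read the same way, had 4 rises, 0 falls and a median of 0.76 over 6 genes. The limma test of mutant minus WT response called 0 genes in each of the 5 lists. At an unadjusted p under 0.05 were 1 of 6, 1 of 7, 2 of 20, 4 of 28 and 5 of 36 genes. Over all genes tested, 7.47% were.

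The list of other cytokines and receptors around the common gamma chain had 6 of 13 genes bright enough to test. Of these, 1 rose and 1 fell, with a median of 0.22. The list also holds Il13ra1, Tslp and Crlf2, whose receptors do not use that chain, and Crlf2 was among the 6 tested. Il7r, the receptor chain that binds IL-7, rose by 0.93 (adjusted p = 0.00370). Il15ra, which presents IL-15 and is the neighbour of Il2ra on the chromosome, had a mean response of -1.22 (SE 0.285, limma adjusted p = 0.0295). Its signals with and without TGF-b were 47.6 and 212 in Smad2KO, then 122 and 178 in Smad3KO, 134 and 68.9 in Smad2KO_Smad3het, and 57.9 and 112 in WT. The Smad2KO_Smad3het pair ran the other way, and the call was lost without the WT pair (adjusted p = 0.120) and without the Smad2KO pair (adjusted p = 0.150). Without the Smad3KO pair the list had 3 rises, Crlf2 among them, and 2 falls.

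In the rest of the Jak and Stat family, 1 of 7 tested genes rose and 2 fell, with a median of -0.06. Stat4, which carries the IL-12 signal, fell (adjusted p = 2.23e-05), with log2 ratios of -1.61 in Smad2KO, -1.57 in Smad3KO and -1.31 in WT. Jak2, a kinase of many cytokine receptors, fell by 0.67 on the log2 scale (adjusted p = 0.00291). Stat3, which carries the IL-6 signal and neighbours Stat5a, rose by 0.39 (adjusted p = 0.0185), a call lost without the WT pair (adjusted p = 0.108) or the Smad2KO pair (adjusted p = 0.156). On the Smad2KO_Smad3het arrays Stat3 read 733 with TGF-b and 1003 without. In the list of kinases, adaptors and phosphatases drawn up for the relay and damping of the IL-2 signal, 3 of 20 rose and 2 fell. The median was -0.05. The 20 include Pdk1, which encodes a kinase of pyruvate dehydrogenase rather than a relay of that signal, and it was not called. The phosphatase gene Dusp5 rose by 1.10, the PI3-kinase subunit gene Pik3r1 by 0.98 and the phosphatase gene Ptpn1 by 0.44. Dusp6, a phosphatase of ERK, and Akt2, a kinase downstream of PI3-kinase, fell, with mean responses of -1.25 and -0.36. The Akt2 call was lost without the WT pair (adjusted p = 0.0778) and without the Smad2KO pair (adjusted p = 0.254).

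Known targets of IL-2 and STAT5 had 10 of 28 tested genes higher and 1 lower, with a median of 0.13. Cish, a feedback inhibitor that STAT5 induces, read 3249 with TGF-b and 989 without in Smad2KO, and 2701 and 862 in Smad3KO. It read 2852 and 1002 in Smad2KO_Smad3het, and 3293 and 942 in WT, so the groups did not overlap and all 4 genotypes were much alike. Its mean response was 1.72 (SE 0.0754, adjusted p = 6.24e-07).

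Other targets that rose were the cytokine gene Lta at 1.85, the Ikaros-family gene Ikzf4 at 1.86, the inhibitor of DNA binding Id2 at 0.89, the survival gene Bcl2 at 1.07 and the feedback inhibitor Socs3 at 1.63. Foxp3 rose by at least 2.80, a bound since its signals without TGF-b were under the floor. Osm rose by 0.86, and Socs1 and Socs2, further feedback inhibitors, rose as well, these 3 named after their values were seen. Socs2 read 3073 with TGF-b and 152 without in Smad2KO. It read 842 and 113 in Smad3KO, against 3297 and 121 in WT, and its call was lost without the WT pair (adjusted p = 0.0718) and without the Smad2KO pair (adjusted p = 0.228). Gzmb, a cytotoxic granule protease, fell, with a mean response of -2.35 or lower, as its signals with TGF-b were at or near the floor. The other 17 did not pass, among them Myc at -0.23 and Pim1 at 0.23. The single fall became 3 without the Smad3KO pair and 2 under either quantile normalization or median centring.

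Regulators of Il2 transcription had 7 of 36 genes higher and 9 lower, with a median of 0.06. Those that fell included the immediate-early genes Fos (-1.19), Fosl1 (-0.94), Egr1 (-0.77) and Egr3 (-0.56), the NF-kB subunit gene Rel (-0.71) and the nuclear receptor gene Nr4a2 (-0.62). Those that rose included Runx1 (1.21), the NFAT gene Nfatc2 (0.84), the AP-1 gene Jun (0.66) and Dgka (0.47), a kinase that removes diacylglycerol. Foxp3 and Ikzf4 belong to this list as well. The rises were 11 without the Smad3KO pair, and the Jun call was lost without the WT pair (adjusted p = 0.161). For Fos, the signals with and without TGF-b were 182 and 391 in Smad2KO, then 171 and 419 in Smad3KO, and 170.3 and 386 in WT, and its mutant minus WT response was -0.02 (limma adjusted p = 0.993). On the Smad2KO_Smad3het arrays Fos read 44.05 with TGF-b and 15.7 without, and Fosl1, Jun and Rel also ran against their mean response there, 4 of the 16 called genes. In all 5 lists, every count of called genes was 0 with the 8 arrays fitted together, except for 1 rise among the IL-2 and STAT5 targets, that of Cish.

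**Figure D4:**
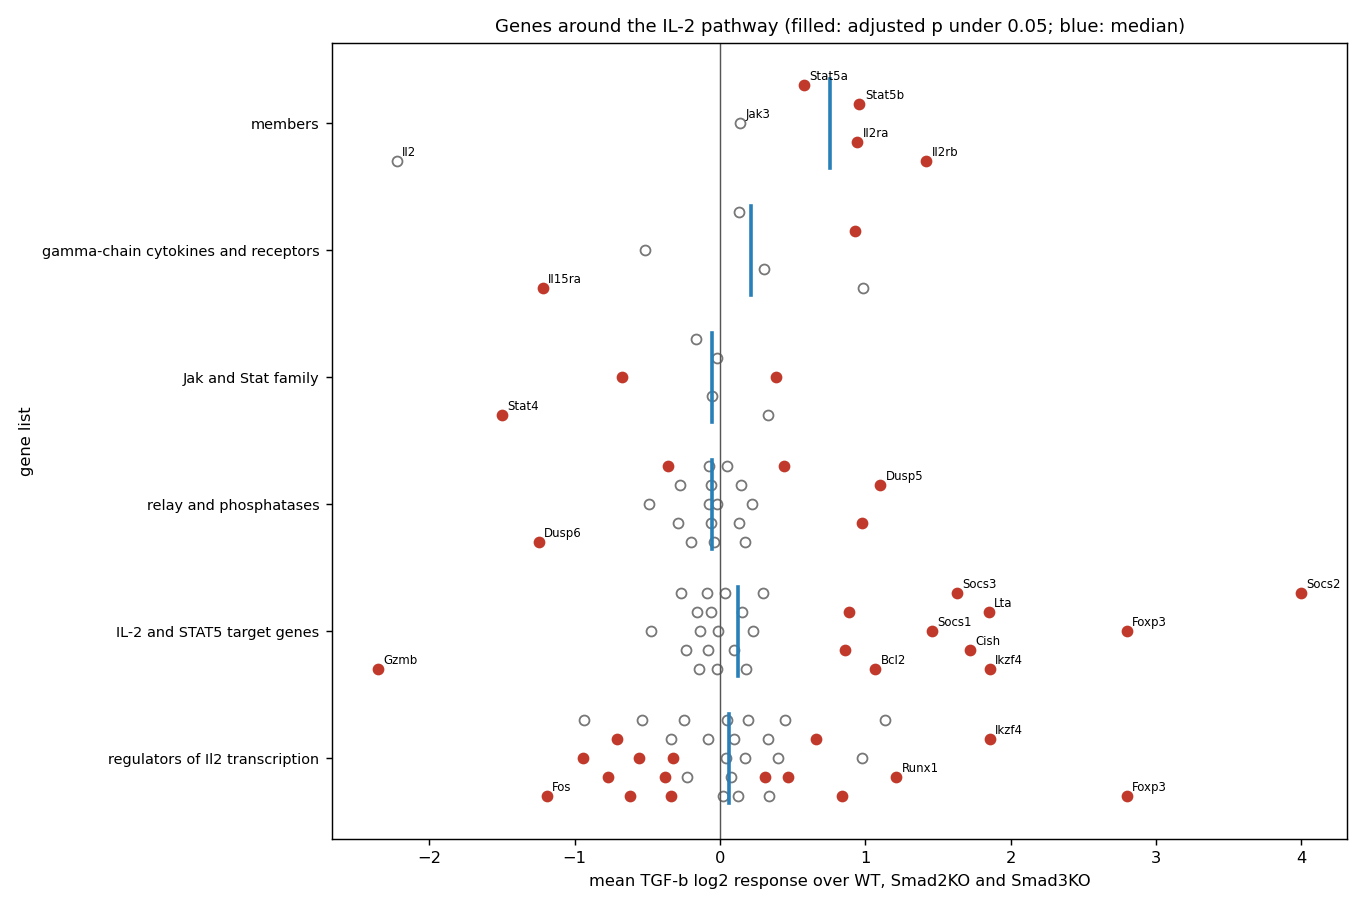
Mean TGF-b log2 response over Smad2KO, Smad3KO and WT for the genes of each list (1 point per gene, filled where the limma adjusted p is under 0.05, line at the median of the list, Foxp3 and Gzmb being bounds). The pathway's own genes have a median of 0.76, against 0.13 for IL-2 and STAT5 targets and values between -0.06 and 0.22 for the rest.

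The genes most like Il2 over the 6 arrays were found by the root mean square difference between log2 profiles, each centred on its own mean, among 1566 genes with a range of at least 1 log2 unit. They were Nrn1 (0.239), AI504432 (0.254), Serpinb6b (0.297), Kcna3 (0.301) and Ms4a4c (0.331). Nrn1, which encodes neuritin, had log2 ratios of -2.16 in Smad2KO, -1.65 in Smad3KO and -3.79 in WT. Kcna3, a potassium channel of T cells, had -1.54 in Smad2KO, -1.34 in Smad3KO and -2.55 in WT. All 5 had their lowest ratio in WT, which is what the measure selects for.

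For Il2ra, the nearest profiles were those of Itgb2 (0.0377), Foxn3 (0.0512), Arhgap24 (0.0582), Mtmr3 (0.0689) and Med14 (0.0813). Arhgap24 signals without TGF-b were below the floor. Itgb2, the beta chain of the integrin LFA-1, had log2 ratios of 0.94 in Smad2KO, 0.79 in Smad3KO and 1.05 in WT, against 0.88, 0.85 and 1.10 for Il2ra by its first probe set in the same order.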

How the data were processed

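Total RNA of the 8 cultures (Trizol, then a column) was biotin-labelled from 6 ug each, per the labels. The authors deposited linear-scale intensity per probe set. The submitters' processing notes name GCOS 1.4; which algorithm and scaling it ran with is not given in the sources. Deposited medians per array were 27.3 to 44.4. Here each array was scaled to one 2% trimmed mean (factors 0.846 to 1.25 on the 6 arrays of Smad2KO, Smad3KO and WT, and 2.59 and 2.31 for Smad2KO_Smad3het with and without TGF-b). A floor at the median of the 6 arrays (32.3) was applied before log2. Probe sets with a highest signal of at least 64.5, 2 times the floor, were tested, and all 10 of the pathway passed. Gene names came from the platform annotation: 34945 of 45101 probe sets had 1 symbol, 932 several and 9160 none.

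Tests used limma 3.58.1 in R 4.3.3 with trend and robust variances and Benjamini-Hochberg adjustment at 0.05 over all probe sets tested. The mean response had genotype as a block (2 residual degrees of freedom), levels had treatment as a block, and the mutant minus WT response had 1 residual degree of freedom. The fit code was run on simulated data with independent noise of the same size for every probe set. Such data cannot show how the tests behave where responses differ between genotypes without replicates. Whether the cultures came from different animals is not in the labels. The p-value of a mean response reflects how unlike the responses of the genotypes were. That of a level reflects how unlike the genotype differences were with and without TGF-b. That of the mutant minus WT response reflects the difference between both mutants. Part of each may be technical, and none measures the spread between repeated cultures. For arrays, their number limits the precision.

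Probe sets of the 7 genes were all named. From each list, genes past the threshold were named, at most 6 per direction by smallest p, with Foxp3 and Cish throughout, and the 5 nearest profiles of Il2 and Il2ra. The members and lists were chosen with earlier results of these data known. Alternatives were other scalings, floors, filters, variance settings, blocks, arrays left out or added, and 1 probe set per gene. Figures used matplotlib 3.10.9.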

Additional observations from a re-analysis of the deposited data

Results flagged for a closer look

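In the limma test above, the TGF-b response of Il2 differed between the mutants and WT. The mean of Smad2KO and Smad3KO minus WT was 1.51 on the log2 scale. The WT response was 1 pair of arrays, so the spread between WT cultures did not enter that test. The call was lost in 3 of 9 alternatives. Smad2KO_Smad3het, outside that test, had a ratio of -0.30, against -3.23 in WT.

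Jak3 had a log2 ratio of -0.21 in Smad2KO, against 0.48 in WT, so the signal moved in opposite directions with TGF-b in these genotypes. That difference between single pairs of arrays was not tested by itself. The robust SD of all ratios was 0.281 in Smad2KO and 0.342 in WT, so the Smad2KO ratio lay within that spread and the WT ratio outside it.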

How the results depend on the processing

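The ratios within each genotype kept their direction under every scaling and floor tried. Quantile normalization was not applied to Smad2KO_Smad3het. Of the mean response, 8 probe sets were called higher; this was 6 without the filter (both Stat5a probe sets lost their call, adjusted p 0.0515 and 0.0654), 5 without the trend and robust settings, 1 with all 8 arrays and 4 of 6 with 1 probe set per gene, and 1 (Il2) was called lower without the filter or without the WT pair. For the mutant minus WT response of Il2, the 1 call became 0 without the filter, without the trend and robust settings and with all 8 arrays, and held in the other 6 alternatives. For Smad2KO levels, the 1 call became 0 in those same settings, with 1 probe set per gene and without the treatment block. For Smad3KO levels, 1 probe set (Stat5b) was called lower with the floor at the 25th percentile. Uncalled values changed sign in 7 cases. Median centring, which shifts the median of all probe sets by 0.15 in Smad2KO and 0.18 in Smad3KO relative to WT, gave Il2ra -0.0263 in the mutant minus WT response, 0.0639 in Smad2KO and 0.0903 in Smad3KO levels, and Jak3 0.0990 in Smad3KO levels. All 8 arrays gave -0.0124 for Il2ra and 0.209 for Jak3 in the mutant minus WT response. The mean Jak3 response was -0.0312 without the WT pair. The cause of these changes was not tested. Over all probe sets, calls ranged over alternatives from 22 to 2628 in the mean response, 0 to 95 in the mutant minus WT response, 6 to 471 in Smad2KO levels and 2 to 442 in Smad3KO levels. Over the alternatives, the IL-2 and STAT5 targets had 1 to 11 rises and 0 to 3 falls, and the regulators of Il2 transcription 0 to 11 rises and 0 to 12 falls. In the 5 gene lists, no called gene changed sign in 65 combinations of list and setting. The labels give no replicate numbers. The mean response pairs the cultures of a genotype through the genotype block, and without that block the count of called probe sets stayed at 8 higher and 0 lower. Leaving out a mutant pair from the mutant minus WT response leaves no residual degrees of freedom, so that test was not run.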

Other observations

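Stat3, Stat5a and Stat5b lie next to each other in the RefSeq gene order, and all 3 rose with TGF-b in the mean response, by 0.39, 0.58 and 0.96 on the log2 scale. The Stat3 call was lost without the WT pair and without the Smad2KO pair, and on the Smad2KO_Smad3het arrays Stat3 read 733 with TGF-b and 1003 without, the opposite direction. Il2ra and Il15ra are also neighbours, and their mean responses were 0.95 and -1.22.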
